A study of Arabidopsis thaliana with 12 samples.

Results

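The change between the 1-cell and the 32-cell stage that both embryonic lineages of Arabidopsis thaliana show was examined in all 12 libraries of the series. The 32-cell embryo was represented by its embryo proper (32E) and its suspensor (32S), and the 1-cell embryo by its apical cell (AC) and its basal cell (BC), with 3 libraries in each of the 4 groups. All embryos came from the Columbia-0 ecotype, grown under long days, and no mutant or treated group was included. All 6 libraries of the 32-cell embryo were compared with all 6 of the 1-cell embryo, with lineage as a covariate (AC and 32E apical, BC and 32S basal). The labels describe AC and BC as cells of a 2-celled embryo, that is, the daughters of the first zygotic division.

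After the zygote divides unequally, the apical cell forms most of the embryo proper, and the basal cell forms the suspensor, a file of cells that anchors and feeds the embryo. By the 32-cell stage an outer layer, the protoderm, has been set apart in the embryo proper by divisions parallel to the surface. It is the precursor of the epidermis and carries the cuticle, a layer of cutin and wax. Auxin acts in both lineages through Aux/IAA repressors, ARF transcription factors and carriers of the PIN and AUX/LAX families.

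Each library was made from a small pool of cells, or of their descendants, that were freed from seeds by cell wall enzymes and glass needles, cut apart with a laser and amplified by SMART-seq. The labels name the Nextera XT or the NEBNext Ultra DNA kit for library construction without saying which library received which, while the study's methods name NEBNext Ultra DNA alone, so the kit could not be set beside the groups. In such bulk samples, fewer cells of a type and less RNA per cell cannot be told apart. The libraries' FPKM (fragments scaled to transcript length and to the mapped total of the library) summed to between 833418 and 955228, and the files hold no counts, so the number of reads behind a value is unknown and a value of 0 is given as listed at 0. The study tabulates read totals per library, which are not used here. The 20 highest genes held 15.6% of all FPKM in 32S replicate 2, against 5.50% to 11.8% in the other 11 libraries. A list of 9 genes of the apical lineage summed to 879 to 941 FPKM in 32E, 52.6 to 87.2 FPKM in 32S, 566 to 643 FPKM in AC and 557 to 591 FPKM in BC, so it separated 32E from 32S but not AC from BC. A list of 9 genes of the basal lineage summed to 127 to 154 FPKM in 32E and 817 to 946 FPKM in 32S, and to 58.4 to 67.1 FPKM in AC and 1281 to 1309 FPKM in BC. Of 15 endosperm genes, 9 in 32E, 11 in 32S, 10 in AC and 12 in BC were listed at 0 in all 3 libraries, and their sums were 5.65 to 6.63, 13.9 to 21.3, 8.76 to 10.2 and 32.3 to 34.2 FPKM. Of 18 genes of seed coat and integument, 6 in 32E, 12 in 32S, 9 in AC and 12 in BC were listed at 0 in all 3 libraries, and their sums were 38.6 to 48.2, 4.85 to 12.3, 23.4 to 30.9 and 47.7 to 58.7 FPKM.

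Genes were compared with limma on log2(FPKM + 1), and a gene was called when its Benjamini-Hochberg adjusted p was under 0.01 and its difference was at least 1 on this log2 scale. Differences are given as 32-cell minus 1-cell with their standard error, and they understate the change of genes with low FPKM. Of 17060 genes tested, 1659 rose (9.72%) and 1650 fell (9.67%) with stage. Of these, 771 rose (4.52% of genes tested) and 716 fell (4.20%) by the same thresholds in each lineage. The comparisons of 32E with AC and of 32S with BC share no library. Both, however, use one estimate of the spread from all 12 libraries, so the 2 calls are not independent. Without 32S replicate 2, 816 genes rose and 728 fell in both lineages. A further 213 of the genes that rose were called in the apical lineage alone, 651 in the basal lineage alone and 24 in neither, against 163, 763 and 8 of the genes that fell. No gene called with stage was called in opposite directions in the lineages. In the additive model unequal changes of the lineages enter the residual, so such a gene was unlikely to be called with stage. The absence therefore does not describe how well the lineages agreed. With median-ratio scaling, the genes called in both lineages were 930 that rose and 528 that fell, and the median difference of all genes was 0.13 in place of -0.06.

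The sizes of the change were often unequal. The lineages were less than 1 apart on the log2 scale for 414 of the 771 genes that rose (53.7%) and for 381 of the 716 that fell (53.2%). A test of the difference between the lineages, which also required them to be at least 1 apart, was passed by 255 of the 771 and 273 of the 716. Among genes that rose in both lineages, 64.3% had the larger difference in the basal lineage, and the median differences were 2.13 in the apical and 2.64 in the basal lineage. Among those that fell, 68.4% changed more in the basal lineage, with medians of -1.66 and -2.39. The values of the stages did not overlap in any library for 600 of the 771 genes and for 552 of the 716, where 14.7% of all genes tested had no overlap. All 6 libraries of the 1-cell embryo were listed at 0 for 122 of the genes that rose, and all 6 of the 32-cell embryo for 6 of the genes that fell. Since the genes were chosen by their difference, these figures are a description.

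**Figure D1:**
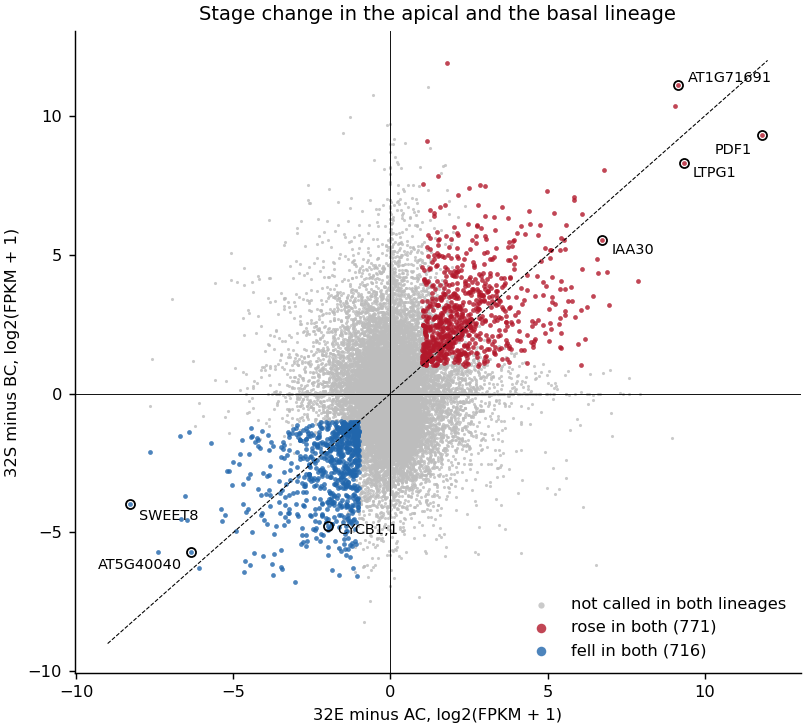
Each point is a gene tested, with 32E minus AC on the x axis and 32S minus BC on the y axis, both in log2(FPKM + 1). The 771 genes that rose and the 716 that fell in both lineages occupy opposite corners on both sides of the dashed line of equal change.

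The 12 genes with the largest rise in both lineages were taken from those whose stages did not overlap. They included genes of the outer cell layer and of wax formation. PDF1 (PROTODERMAL FACTOR 1, AT2G42840, chr2:17826071-17827648 in TAIR10.1), a secreted proline-rich protein of the protoderm and epidermis, had 3514, 4033 and 3297 FPKM in 32E and 503, 1941 and 897 in 32S. In the 1-cell embryo it had 0 in each AC library and 0, 0.04 and 2.25 FPKM in BC. The lowest library of the 32-cell embryo was thus far above the highest of the 1-cell embryo, the adjusted p was 8.94e-08, and the difference was larger in the apical than in the basal lineage (11.81 ± 0.48 and 9.32 ± 0.48). LTPG1 (AT1G27950), a lipid transfer protein anchored in the plasma membrane that takes part in wax export, had 581, 775 and 632 FPKM in 32E and 187, 605 and 278 in 32S. It had 0, 0.08 and 0 FPKM in AC and 0 in each BC library (adjusted p = 6.41e-09). MYB94 (AT3G47600), a transcription factor that activates wax synthesis genes, had 88.7, 60.3 and 80.8 FPKM in 32E and 126, 177 and 147 in 32S, against 1.47, 0 and 0 in AC and 0, 0.64 and 0 in BC (difference 6.41 ± 0.32, adjusted p = 1.27e-07). The lack of overlap between the stages in these 3 genes was a condition of their choice and adds no evidence.

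The window of 300 bases before the annotated start of LTPG1 (chr1:9740208-9740507 in TAIR10.1, plus strand) is shown because an L1 box, TAAATGNA, the binding sequence of epidermal homeodomain factors, was found in it on the reverse strand, 267 bases before the start, in capitals.
LTPG1: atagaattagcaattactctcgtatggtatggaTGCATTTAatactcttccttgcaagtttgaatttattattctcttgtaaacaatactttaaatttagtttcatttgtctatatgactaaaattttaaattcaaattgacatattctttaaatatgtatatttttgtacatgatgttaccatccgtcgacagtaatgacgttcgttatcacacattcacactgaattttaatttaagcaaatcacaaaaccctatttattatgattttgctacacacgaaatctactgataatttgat
The L1 box, which was chosen after the values were seen, was present on either strand in 13.1% of the windows of genes that rose in both lineages, 13.7% of those that fell and 11.6% of those of all genes tested. It was found in 3 of the 8 windows of cuticle genes described next and in 8 of 31 windows of their list.

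Of 31 tested genes of protoderm and cuticle, 8 rose in both lineages (25.8%) and 0 fell, beside 4.52% and 4.20% of all genes, and 23 were not called in both. At an unadjusted p under 0.05 in both lineages in limma, with no threshold on size, 12 rose and 1 fell. The share of all genes at this looser threshold was not counted. Such counts, here and below, therefore have no background beside them and do not show an excess. The list's median difference was 1.31 beside -0.06 over all genes, with 0.60 in the apical and 1.08 in the basal lineage. Beside PDF1 and LTPG1, these were LTPG2, a further anchored lipid transfer protein, the cutin genes CYP86A2 (a fatty acid hydroxylase), LACS2 (an acyl-CoA synthetase) and PEL3 (an acyltransferase, also known as DCR), and KCS6 and KCS10, enzymes that elongate very long fatty acids. LTPG2 had 14.9, 34.5 and 36.6 FPKM in 32E and 96.3, 103 and 97.1 in 32S, against 1.29, 0.58 and 1.2 in AC and 4.15, 4.8 and 4.27 in BC (difference 4.0 ± 0.24, adjusted p = 5.09e-07). CYP86A2 had 11.8, 28.9 and 10.9 FPKM in 32E and 16.7, 30.9 and 19.8 in 32S, against 0.29, 0 and 0 in AC and 0 in each BC library (difference 4.22 ± 0.29, adjusted p = 1.27e-06). These genes rose by about the same amount in both lineages, at 3.79 and 4.21 for LTPG2 and 3.93 and 4.51 for CYP86A2. LACS2 rose more in the apical lineage, with 54.1, 82.5 and 82.5 FPKM in 32E and 1.98, 4.98 and 2.27 in 32S, against 0 in every library of the 1-cell embryo. KCS10 rose more in the basal lineage, with 146, 155 and 145 FPKM in 32E and 141, 319 and 198 in 32S, against 16.9, 13.4 and 24.7 in AC and 0.22, 0.11 and 0.2 in BC. The summed level of the seed coat list, given above, was higher in 32E than in AC and lower in 32S than in BC. Its gene STK, a MADS-box factor of the ovule, rose in both lineages (17.8, 19 and 17.1 FPKM in 32E and 3.83, 11.7 and 6.23 in 32S, against 0, 7.56 and 0 in AC and 0, 0.26 and 0 in BC), with overlapping stages because of AC replicate 2. The part of the seed coat list in the rise of the cuticle genes was not tested.

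Several of the other leading genes belong to enzyme families or are little characterised. AT1G71691, a lipase of the GDSL family, had 406, 782 and 578 FPKM in 32E and 1631, 3165 and 2095 in 32S, and it was listed at 0 in all 6 libraries of the 1-cell embryo (adjusted p = 7.84e-09). AT2G28790, of the thaumatin family, had 469, 570.3 and 646 FPKM in 32E and 1161, 1617 and 1210.3 in 32S, and a single AC library had 0.12 FPKM while the other 5 libraries of the 1-cell embryo were at 0. AT3G24250, annotated as a glycine-rich protein, reached the highest level of any gene that rose, with 3907, 4173 and 4402 FPKM in 32E and 9226, 14697 and 10175 in 32S, against 76.5, 52.3 and 93.6 in AC and 94.7, 74.2 and 77 in BC (difference 6.45 ± 0.26, adjusted p = 3.06e-08). All 3 had a larger difference in the basal than in the apical lineage, by 1.96, 1.29 and 1.25 on the log2 scale. AT5G22810, also a GDSL lipase, had 61.5, 116 and 90.6 FPKM in 32E and 466, 867 and 601 in 32S, against 2.1, 0.18 and 0.6 in AC and 9.15, 7.45 and 8.23 in BC (difference 5.84 ± 0.26, adjusted p = 5.31e-08). ABCG15, a transporter of the ABC family, had 111, 116 and 102 FPKM in 32E and 204, 359.5 and 258 in 32S against 0 in every library of the 1-cell embryo. BEN1, a reductase-like protein that affects brassinosteroid levels, rose by nearly equal amounts, with 214, 196 and 148 FPKM in 32E and 119, 148 and 124 in 32S, against 1.68, 1.3 and 2.11 in AC and 0.43, 0.54 and 0.44 in BC (differences 6.11 ± 0.18 and 6.48 ± 0.18 in the apical and basal lineage). AT5G47440, annotated as an auxin canalization protein, and AT4G33160, an F-box protein, completed the 12 genes with the largest rise. They differed between the stages by 5.53 and 5.51.

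**Figure D2:**
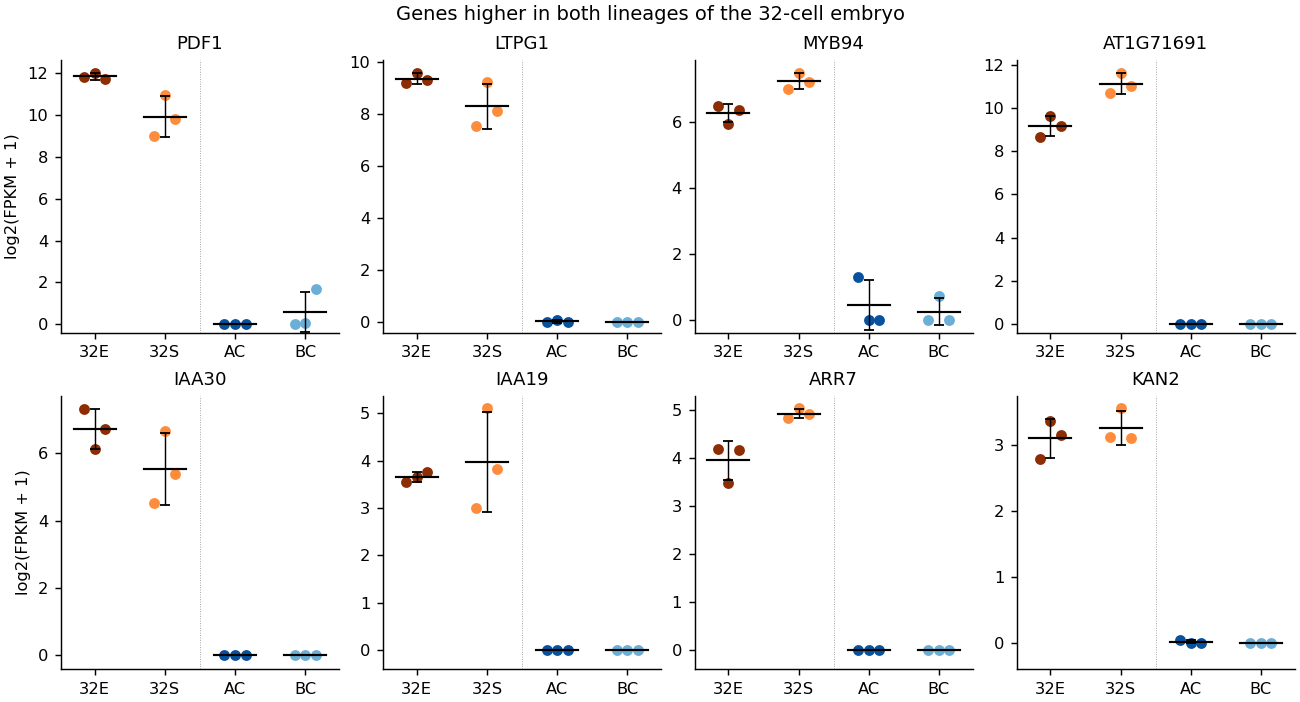
The level of 8 genes in log2(FPKM + 1) (y axis) is shown in each library (points) of 32E, 32S, AC and BC (x axis), with the group mean (line) and SD (bars). In all 8 genes, which were chosen for their rise, every library of 32E and 32S lies above every library of AC and BC.

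Of 48 tested genes of auxin response and transport, 13 rose in both lineages (27.1%) and 1 fell (2.08%), beside 4.52% and 4.20% of all genes, and 34 were not called in both. The list's median difference was 1.29 over both lineages, 1.29 in the apical and 0.50 in the basal lineage. At a log2 difference of 2 the count that rose was 7 of 48, beside 335 of the 17060 genes tested. The genes that rose were the Aux/IAA repressors IAA1, IAA2, ATAUX2-11 (IAA4), IAA8, IAA12, IAA13, IAA19 and IAA30, the response factors ARF6 and ARF10, the efflux carriers PIN4 and PIN7, and the influx carrier LAX2. IAA30 had 160.4, 68.5 and 105 FPKM in 32E and 22.2, 100.4 and 41 in 32S and IAA19 had 10.7, 11.6 and 12.5 FPKM in 32E and 7.03, 33.4 and 13.1 in 32S, and both were listed at 0 in all 6 libraries of the 1-cell embryo (adjusted p = 6.18e-07 and 5.07e-06). IAA1 had 88, 47.4 and 80.8 FPKM in 32E and 4.69, 79.5 and 23.4 in 32S, against 0, 0.08 and 0 in AC and 0 in each BC library (adjusted p = 3.03e-05). In each of these 3 genes 32S replicate 2 was the highest and 32S replicate 1 the lowest library of 32S. Yet no library of the 32-cell embryo was as low as any of the 1-cell embryo. The same order in 32S was seen outside the auxin genes, as in PDF1, LTPG1, AT1G71691, AT3G24250, CPD and EXPA10. It was not general, since 32S replicate 2 was the lowest for PCK1 and FUS3. Among 32E libraries, replicate 2 was the highest for PCK1, FUS3 and PIN7, which were all far higher in 32S than in 32E. For ARF10, also far higher in 32S, 32E replicate 2 was the lowest. Transfer of material between 32E and 32S was not tested.

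Windows of 300 bases before the starts of IAA1 (chr4:8360696-8360995) and IAA19 (chr3:5263701-5264000), both on the plus strand of TAIR10.1, are shown because they hold the core of the auxin response element, TGTCTC, in capitals. It lies 135 bases before the start of IAA1 (on the reverse strand) and 128, 145 and 184 bases before that of IAA19.
IAA1: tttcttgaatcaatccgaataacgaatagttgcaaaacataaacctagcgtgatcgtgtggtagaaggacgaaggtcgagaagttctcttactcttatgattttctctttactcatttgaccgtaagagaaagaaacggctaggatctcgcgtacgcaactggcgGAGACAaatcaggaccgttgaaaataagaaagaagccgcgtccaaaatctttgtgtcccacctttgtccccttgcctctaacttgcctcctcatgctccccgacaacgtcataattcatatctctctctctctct
IAA19: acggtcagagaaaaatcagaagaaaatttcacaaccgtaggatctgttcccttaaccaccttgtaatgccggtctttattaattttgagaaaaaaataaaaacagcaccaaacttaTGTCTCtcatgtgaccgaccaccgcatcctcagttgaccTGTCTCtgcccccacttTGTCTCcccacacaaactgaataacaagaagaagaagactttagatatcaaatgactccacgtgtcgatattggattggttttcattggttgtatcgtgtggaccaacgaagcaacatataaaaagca
TGTCTC was found on either strand in 4 of the 13 windows of the auxin genes that rose, these genes included, and in 9 of 48 windows of the list. It was present in 15.8% of windows of all genes that rose in both lineages, 14.1% of those that fell and 12.6% of those of all genes tested.

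IAA8 was already present in the 1-cell embryo and rose less, with 281, 327 and 308 FPKM in 32E and 507, 594 and 553 in 32S, against 101, 112 and 74.2 in AC and 122, 129 and 153 in BC (difference 1.86 ± 0.14, adjusted p = 2.7e-06). ARF6, an activator of auxin response, had 18.4, 16.3 and 20.18 FPKM in 32E and 22.9, 23.5 and 22.6 in 32S, against 6.12, 7.43 and 6.84 in AC and 10.2, 9.72 and 8.33 in BC, and its differences were nearly equal in the lineages (1.31 ± 0.16 and 1.21 ± 0.16). ARF10, a repressor of auxin response, had 2.23, 1.34 and 2.19 FPKM in 32E and 43.4, 34.5 and 43 in 32S, against 0.02, 0 and 0 in AC and 0 in each BC library, so it rose more in the basal lineage. LAX2 had 81.9, 53.7 and 51.7 FPKM in 32E and 10.9, 28.3 and 16.3 in 32S, against 0.74, 0.6 and 0.96 in AC and 0 in each BC library (difference 4.66 ± 0.29, adjusted p = 6.13e-07). PIN7, the efflux carrier of the early basal lineage, had 0.81, 4.7 and 1.98 FPKM in 32E and 85.5, 138 and 103 in 32S, against 0 in each AC library and 16, 14.5 and 11.8 in BC, so that its BC libraries were higher than its 32E libraries although it rose within each lineage (1.65 ± 0.36 and 2.84 ± 0.36). PIN4 likewise rose in both lineages, with differences of 3.32 and 1.67. ARF17 was the auxin gene that fell, with 7.04, 3.51 and 3.43 FPKM in 32E and 8.35, 6.67 and 7.24 in 32S, against 36.2, 29.5 and 45 in AC and 21.2, 18.4 and 20.6 in BC (difference -2.05 ± 0.29, adjusted p = 0.000247).

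Other hormone genes changed in both directions. Of 24 tested cytokinin genes, 4 rose in both lineages (16.7%, beside 4.52% of all genes) and 2 fell (8.33%, beside 4.20%). ARR7, a type-A response regulator that dampens cytokinin signalling, had 17.3, 10.2 and 17.1 FPKM in 32E and 27.7, 32 and 29.1 in 32S against 0 in every library of the 1-cell embryo (adjusted p = 3.76e-07). ARR15, of the same type, fell, with 13.8, 16 and 13.8 FPKM in 32E and 27.4, 58.1 and 37.9 in 32S, against 163, 154 and 173 in AC and 152, 155 and 169 in BC (difference -2.69 ± 0.26, adjusted p = 1.75e-05). The pair thus moved in opposite directions, each without overlap between the stages. RR3, a further type-A regulator, the receptor WOL (also known as AHK4) and the cytokinin oxidase CKX6 rose, by 2.01, 1.93 and 3.21. The type-B regulator RR14, a transcription factor, fell, with a difference of -2.89.

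Of 36 tested genes of gibberellin, brassinosteroid and ethylene, 4 rose in both lineages (11.1%) and 1 fell (2.78%), beside 4.52% and 4.20% of all genes. DWF4 and CPD, cytochrome P450 enzymes of brassinosteroid synthesis, and BES1, a transcription factor of the brassinosteroid response, rose. DWF4 had 114, 121 and 139 FPKM in 32E and 13.3, 3.41 and 11 in 32S, against 0.03, 0.03 and 0 in AC and 0 in each BC library, with a far larger difference in the apical lineage (6.94 ± 0.36 and 3.19 ± 0.36). CPD had 7.04, 8.48 and 6.0 FPKM in 32E and 1.82, 14.2 and 4.37 in 32S, against 0, 0 and 0.04 in AC and 0 in each BC library, with differences of 3.0 ± 0.45 and 2.62 ± 0.45. BES1 had 36.3, 46.9 and 46.7 FPKM in 32E and 7.61, 19.5 and 11.4 in 32S, against 3.19, 2.08 and 4.96 in AC and 0, 0 and 1.84 in BC (difference 3.28 ± 0.33, adjusted p = 2.31e-05). Of 19 tested genes of wounding, touch and jasmonate, 2 rose in both lineages (10.5%, beside 4.52% of all genes) and 0 fell. At an unadjusted p under 0.05 in limma 6 rose and 0 fell in both. The 2 genes called were the transcription factors MYC2, a main regulator of jasmonate response, and ERF4. MYC2 had 5.81, 32.9 and 46.8 FPKM in 32E and 20.4, 14.6 and 19 in 32S, against 2.61, 3.89 and 0 in AC and 0, 2.03 and 0.05 in BC (difference 3.39 ± 0.55, adjusted p = 0.000618), and ERF4 rose by 2.49 ± 0.24, adjusted p = 1.84e-05.

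Of 51 tested genes of embryo patterning, 9 rose in both lineages (17.65%) and 0 fell, beside 4.52% and 4.20% of all genes. At an unadjusted p under 0.05 in limma 12 rose and 3 fell in both. The list's median difference was 1.59 over both lineages, 1.90 in the apical and 0 in the basal lineage. KAN2 and ATS (KAN4), factors of the KANADI family that specify the abaxial side of organs, were alike in both lineages. KAN2 had 5.91, 9.33 and 7.89 FPKM in 32E and 7.73, 10.8 and 7.62 in 32S, against 0.03, 0 and 0 in AC and 0 in each BC library (difference 3.18 ± 0.20, adjusted p = 7.37e-07). ATS had 3.05, 11.3 and 7.58 FPKM in 32E and 10.6, 10.4 and 11 in 32S against 0 in every library of the 1-cell embryo. PRS (WOX3), a homeobox factor of lateral organ margins, had 8.52, 10.2 and 10.8 FPKM in 32E and 10.2, 23 and 13.8 in 32S, against 1.48, 0 and 0 in AC and 0 in each BC library (difference 3.49 ± 0.32, adjusted p = 1.17e-05). The receptor kinase RPK1 rose by 1.33 and 1.57 in the apical and basal lineage, with no overlap between the stages.

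The other patterning genes were unequal. The B3 factor FUS3, a regulator of seed maturation, had 3.5, 13.2 and 5.76 FPKM in 32E and 428, 279 and 394 in 32S, against 0 in each AC library and 23.4, 17.3 and 20.5 in BC, so its basal level exceeded its apical level at both stages while the differences were 2.92 and 4.09. ABI3, of the same family, showed the reverse order, with 13.8, 20.9 and 24.3 FPKM in 32E and 3.44, 3.4 and 3.01 in 32S against 0 in every library of the 1-cell embryo. AIL5, an AP2-type factor, had 39, 45.3 and 40.6 FPKM in 32E and 39.7, 26.9 and 38.9 in 32S, against 0 in each AC library and 10.6, 8.81 and 12.4 in BC. PHB and ATHB-15, homeodomain factors of class III with roles in the adaxial side and vasculature, rose by 3.07 and 2.78 in the apical lineage and by 1.19 and 1.01 in the basal lineage. PHB had 72.6, 82 and 96.5 FPKM in 32E and 1.36, 2.4 and 1.44 in 32S, against 6.58, 11.4 and 9.66 in AC and 0.07, 0.01 and 0.53 in BC, so that its 32S libraries stayed below its AC libraries. ATHB-15 was only just past the threshold of 1 in the basal lineage.

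Some genes of photosynthesis and of cell wall loosening also rose in both lineages. Of 38 tested photosynthesis genes, 7 rose in both lineages (18.4%) and 0 fell, beside 4.52% and 4.20% of all genes. At an unadjusted p under 0.05 in limma 10 rose and 1 fell in both. The count of 7 depended on single libraries. It was 3 without AC replicate 1, AC replicate 3 or BC replicate 2, 4 without BC replicate 1, 32E replicate 3 or 32S replicate 1, and 11 without 32E replicate 1. The 7 genes were LHCB5, an antenna protein, PSAF and PSBP-1 of the photosystems, PETC, the Rieske protein, DRT112, a plastocyanin, FD1, a ferredoxin, and RBCS1A, the small subunit of Rubisco. FD1 had 92.2, 90.7 and 55.7 FPKM in 32E and 283, 192 and 229 in 32S, against 12.4, 9.78 and 12.9 in AC and 24.1, 36.5 and 24.6 in BC (difference 2.82 ± 0.18, adjusted p = 8.95e-07). PETC had 7.05, 11.6 and 6.03 FPKM in 32E and 25.9, 26.4 and 26.1 in 32S, against 1.52, 0.12 and 0 in AC and 0.12, 0.2 and 0.13 in BC and rose more in the basal lineage (2.66 ± 0.34 and 4.56 ± 0.34). RBCS1A was low and variable, with 0.86, 23 and 8.12 FPKM in 32E and 7.34, 5.32 and 3.96 in 32S, against 0.42, 0 and 0 in AC and 0, 0 and 0.31 in BC (difference 2.63 ± 0.49, adjusted p = 0.00157).

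Of 34 tested expansins and xyloglucan enzymes, 7 rose in both lineages (20.6%) and 0 fell, beside 4.52% and 4.20% of all genes. At an unadjusted p under 0.05 in limma 10 rose and 0 fell in both. Of 46 genes of cell wall synthesis and loosening, which include expansins, 5 rose (10.9%) and 1 fell (2.17%). Expansins loosen the wall during growth. EXPA10 had 10.4, 6.14 and 12.3 FPKM in 32E and 2.45, 14.8 and 4.56 in 32S, against 0.07, 0 and 0 in AC and 0 in each BC library (differences 3.33 ± 0.45 and 2.75 ± 0.45). EXPA6 had 72.5, 102 and 76.7 FPKM in 32E and 7.76, 11.7 and 7.26 in 32S, against 0.04, 0.78 and 0.05 in AC and 0, 0.69 and 0 in BC and rose by 6.07 and 3.03. EXPA15 rose by 5.14 and 3.47, but its 32S values of 7.46, 13.7 and 9.86 FPKM were within the range of AC, where it had 10.2, 19.6 and 6.36 FPKM. The expansin gene EXP3 was the exception and fell, with differences of -1.64 and -2.15.

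Among abundant genes, APX1, the cytosolic ascorbate peroxidase that removes hydrogen peroxide, rose by about the same amount in both lineages, with 1056, 1263 and 997 FPKM in 32E and 1764, 1742 and 1795 in 32S, against 575, 534 and 494 in AC and 686, 709.5 and 641 in BC (difference 1.21 ± 0.16, adjusted p = 0.000133). The peroxidase AT4G31760 had 272, 268 and 249 FPKM in 32E and 387, 472 and 421 in 32S, against 3.2, 3.66 and 4.82 in AC and 41.6, 40.6 and 40.4 in BC, and its difference was 5.77 in the apical and 3.35 in the basal lineage. PCK1, which opens gluconeogenesis, rose by 4.44 and 6.11 and reached 668, 511 and 641 FPKM in 32S, where 32E had 15.6, 34.7 and 25.2 FPKM. The 771 genes that rose held 3.43% to 4.07% of all FPKM in 32E and 6.70% to 7.78% in 32S, against 0.519% to 0.596% in AC and 0.784% to 0.824% in BC. The 716 that fell held 1.01% to 1.301% in the libraries of the 32-cell embryo, against 5.30% to 5.56% in those of the 1-cell embryo. These shares follow from the way the genes were chosen.

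The genes with the largest fall in both lineages, again taken from those whose stages did not overlap, were mostly little characterised. AT5G40040, of a family of acidic proteins of the large ribosomal subunit, had 6.96, 3.38 and 4.48 FPKM in 32E and 14.8, 2.01 and 12.7 in 32S, against 462, 521 and 424 in AC and 439, 479 and 444 in BC (difference -6.03 ± 0.36, adjusted p = 5.28e-07). AT5G09500, of the ribosomal protein S19 family, had 0.61, 0.78 and 0.99 FPKM in 32E and 2.12, 3.34 and 2.87 in 32S, against 274, 358 and 279 in AC and 185, 204 and 198 in BC (difference -6.56 ± 0.28, adjusted p = 4.76e-08). Ribosomal protein genes have close copies in Arabidopsis, and reads that fit several copies may have been divided between them, so the values of both are uncertain. Of 60 tested genes of cytosolic ribosomal proteins 2 fell in both lineages (3.33%) and 0 rose, beside 4.20% and 4.52% of all genes. At an unadjusted p under 0.05 in limma 4 fell and 1 rose in both. AT4G26485, annotated as a methyltransferase domain protein, had 15.6, 3.33 and 9.71 FPKM in 32E and 0 in each 32S library, against 718, 553 and 627 in AC and 65.9, 88.8 and 75.9 in BC (difference -6.19 ± 0.27, adjusted p = 4.76e-08). AT5G45280, a pectin acetylesterase, had 5.46, 2.53 and 7.9 FPKM in 32E and 23.5, 7.02 and 19 in 32S, against 644, 559 and 579 in AC and 374, 349 and 343 in BC (difference -5.58 ± 0.42, adjusted p = 2.59e-06). The stages were separated in each of these 4 genes, as their choice required.

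Among the rest of the 12 genes with the largest fall, ENODL7, an early nodulin-like protein, had 2.57, 2.73 and 3.31 FPKM in 32E and 2.79, 0 and 1.23 in 32S, against 117, 101 and 129.9 in AC and 66.2, 65.7 and 55.5 in BC, with differences of -4.91 ± 0.37 and -4.96 ± 0.37. The gene emb2204, named for an embryo defect, had 5.34, 5.67 and 1.78 FPKM in 32E and 0, 1.04 and 0.19 in 32S, against 128, 136 and 108 in AC and 118, 112 and 118 in BC (difference -5.55 ± 0.36, adjusted p = 8.78e-07). AT2G36540, a hydrolase of the haloacid dehalogenase family, followed it closely, with 4.96, 5.42 and 3.32 FPKM in 32E and 2.14, 0 and 1.37 in 32S, against 153, 118 and 139 in AC and 112, 122 and 149 in BC. AT4G25930, with a DUF295 domain, was listed at 0 in all 6 libraries of the 32-cell embryo, against 71, 98.1 and 97.5 FPKM in AC and 17, 21.4 and 29.6 in BC. The other 4 genes, AT1G49330, AT3G54310, AT2G41780 and AT5G53670, fell, with differences of -4.98, -5.32, -4.69 and -4.82.

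Of the 6 genes that lost the most FPKM in both lineages, AT5G40040 and AT5G45280 are given above, and the others were AT1G53930, a ubiquitin-like protein, AT3G58330, of the phospholipase-like PEARLI family, the sugar transporter SWEET8 and IMPA-6, an importin alpha of nuclear transport. AT1G53930 fell by equal amounts, with 185, 84.7 and 161 FPKM in 32E and 135, 209 and 152 in 32S, against 1077, 1113 and 992 in AC and 1265, 1251 and 1329 in BC (differences -2.95 ± 0.24 and -2.97 ± 0.24). SWEET8 had 0.29, 0 and 0.14 FPKM in 32E and 193, 82.5 and 159.6 in 32S, against 312, 421 and 348 in AC and 2078, 1962 and 2393 in BC, and it was thus high in BC and nearly absent from 32E (differences -8.30 ± 0.25 and -3.96 ± 0.25). AT3G58330 had the same order of groups, with differences of -7.65 and -2.09. IMPA-6 fell with differences of -1.94 and -4.03 and had 157, 137 and 167 FPKM in 32E and 26.2, 14.8 and 25.4 in 32S, against 518, 766 and 523 in AC and 369, 359 and 368 in BC.

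**Figure D3:**
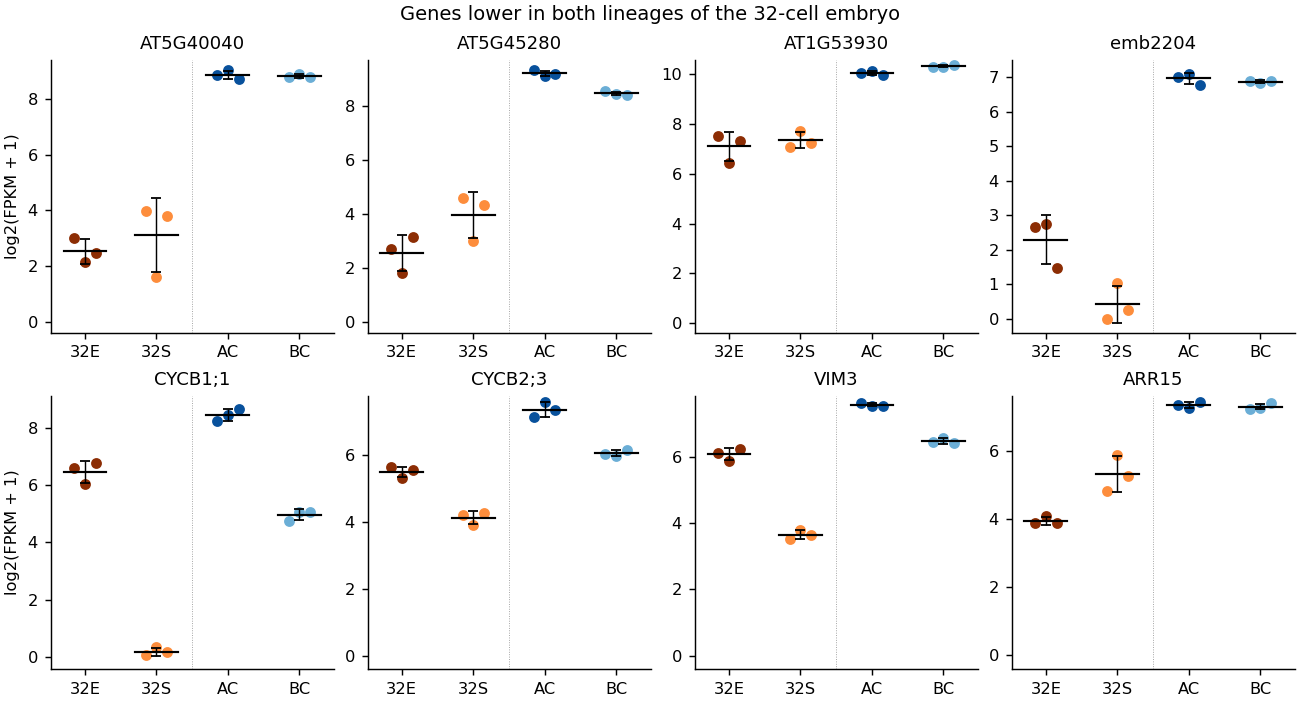
The level of 8 genes in log2(FPKM + 1) (y axis) is shown in each library (points) of 32E, 32S, AC and BC (x axis), with the group mean (line) and SD (bars). In 7 of them, which were chosen for their fall, every library of 32E and 32S lies below every library of AC and BC, while CYCB1;1 was higher in 32E than in BC.

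Of 29 tested genes of mitosis and cytokinesis, 21 fell with stage (72.4%, beside 9.67% of all genes) and 0 rose. In both lineages 9 fell (31.03%, beside 4.20%) and 0 rose, while 20 were not called in both. At an unadjusted p under 0.05 in limma 21 fell and 0 rose in both, a threshold at which all genes were not counted. At a log2 difference of 2, 1 of the 29 fell in both, beside 183 of the 17060 genes tested. The list's median difference was -2.17 over both lineages, -0.96 in the apical and -3.22 in the basal lineage. With median-ratio scaling its median was -1.97 and with scaling to TPM -2.29, and the genes that fell in both lineages were 9 and 10. The 9 genes were the B-type cyclins CYCB1;1, CYC1BAT (CYCB1;2), CYCB2;2, CYCB2;3, CYCB2;4 and CYCB3;1, which drive entry into mitosis, the kinase CDKB2;2, the Aurora kinase AUR3, and MYB3R-4, a transcription factor of genes expressed in G2 and M phase. CYCB2;3 fell by equal amounts in both lineages, with 48.3, 38.7 and 45.4 FPKM in 32E and 17.5, 14.1 and 18.22 in 32S, against 140.0, 189.5 and 161 in AC and 64.8, 61.9 and 69.5 in BC (differences -1.86 ± 0.14 and -1.92 ± 0.14). CYCB1;1 had 96.2, 64.3 and 107 FPKM in 32E and 0.05, 0.28 and 0.13 in 32S, against 299, 348 and 404 in AC and 25.7, 32.5 and 32.8 in BC and fell more in the basal lineage (-1.99 ± 0.19 and -4.76 ± 0.19). Its level in 32E thus remained above that in BC, and the stages overlapped. MYB3R-4 had 11.7, 11 and 14.3 FPKM in 32E and 0.61, 0.55 and 0.7 in 32S, against 49.9, 72.2 and 56.5 in AC and 32.9, 28.3 and 33.1 in BC, with no overlap (difference -3.25 ± 0.35, adjusted p = 3.85e-05). CYCB2;2 was the member that fell more in the apical lineage (-2.27 ± 0.31 and -1.37 ± 0.31), a difference between lineages that did not pass (adjusted p = 0.0896).

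Windows of 300 bases before the starts of CYCB1;1 (chr4:17624309-17624608) and CYCB2;3 (chr1:7137829-7138128), both on the minus strand of TAIR10.1 and printed in the direction of transcription, are shown because they hold the core of the mitosis-specific activator element, CCAACGG, in capitals. It lies 61 bases before the start of CYCB1;1 (on the reverse strand) and 68 bases before that of CYCB2;3.
CYCB1;1: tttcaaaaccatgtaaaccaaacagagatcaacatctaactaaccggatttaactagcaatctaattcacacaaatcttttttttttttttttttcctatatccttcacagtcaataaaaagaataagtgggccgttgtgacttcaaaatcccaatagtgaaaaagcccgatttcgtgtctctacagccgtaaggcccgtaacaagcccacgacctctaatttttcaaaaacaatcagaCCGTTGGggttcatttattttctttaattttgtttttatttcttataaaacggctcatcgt
CYCB2;3: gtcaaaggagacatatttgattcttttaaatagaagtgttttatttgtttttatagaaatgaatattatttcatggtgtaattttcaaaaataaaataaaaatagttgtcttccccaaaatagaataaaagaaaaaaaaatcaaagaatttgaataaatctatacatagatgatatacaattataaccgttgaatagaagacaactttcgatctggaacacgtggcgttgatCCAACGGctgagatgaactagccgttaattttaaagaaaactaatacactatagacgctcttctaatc
CCAACGG was found on either strand in 4 of the 9 windows of mitosis genes that fell, those of CYC1BAT and CYCB2;2 included, and in 6 of 29 windows of the list. It was present in 2.55% of windows of all genes that fell in both lineages, 2.09% of those that rose and 2.03% of those of all genes tested.

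Of 54 tested kinesins and tubulins, 9 fell in both lineages (16.7%, beside 4.20% of all genes) and 0 rose, and 18 fell with stage (33.3%, beside 9.67%). At an unadjusted p under 0.05 in limma 20 fell and 1 rose in both. With median-ratio scaling 6 fell in both. The minus-end directed kinesin ATK4 had 5.5, 4.86 and 10.3 FPKM in 32E and 0 in each 32S library, against 30.3, 30.9 and 40.9 in AC and 32.6, 33 and 31.1 in BC (difference -3.63 ± 0.46, adjusted p = 0.000126). The kinesin genes AT4G26660 and AT2G22610 fell, with differences of -1.80 and -1.51 in the apical and of -4.46 and -2.42 in the basal lineage. In both, 32E overlapped with BC. Of 43 tested genes of G1, S phase and replication, 1 fell in both lineages (2.33%) and 0 rose (5 and 2 at an unadjusted p under 0.05 in limma).

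F-box proteins are the subunits that choose the targets of SCF ubiquitin ligases. By count, more of them fell in both lineages than of any other of 42 families examined, but the family is large. By share of tested members, cyclins (7 of 36, 19.4%), kinesins and tubulins (16.7%), aquaporins (16.7%) and GDSL lipases (12%) were higher. Of 218 tested, 26 fell in both lineages (11.9%, beside 4.20% of all genes) and 6 rose (2.75%, beside 4.52%), and 186 were not called in both. With median-ratio scaling 24 fell and 8 rose. The family's median difference was -0.27 beside -0.06 over all genes, with -0.43 in the apical and 0 in the basal lineage beside -0.01 and 0. At a log2 difference of 2, 12 of the 218 fell in both, beside 183 of the 17060 genes tested. AT4G00315 had 3.98, 0.38 and 3.81 FPKM in 32E and 0 in each 32S library, against 75.9, 60.4 and 57.5 in AC and 53.9, 57.6 and 47.8 in BC (difference -5.05 ± 0.36, adjusted p = 1.82e-06). AT5G52620 had 2.51, 1.1 and 0.06 FPKM in 32E and 0 in each 32S library, against 36, 37.3 and 34.4 in AC and 10.7, 9.0 and 9.57 in BC (difference -3.82 ± 0.30, adjusted p = 3.48e-06). FOA1 had 0.93, 0 and 0 FPKM in 32E and 0.94, 0 and 0.73 in 32S, against 35, 43 and 41.6 in AC and 12.2, 12.6 and 16.1 in BC (difference -4.16 ± 0.36, adjusted p = 7.8e-06). In these 3 genes no library of the 32-cell embryo reached the 1-cell range. F-box genes form large families with close copies, so that reads may have been divided between them.

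Of 29 tested genes of DNA methylation, 2 rose (6.90%) and 2 fell (6.90%) in both lineages, near the 4.52% and 4.20% of all genes. VIM2 and VIM3, proteins that bind methylated CG sites and help to maintain their methylation, fell. VIM3 had 68.5, 57.9 and 73.8 FPKM in 32E and 10.6, 12.8 and 11.4 in 32S, against 195, 183 and 185 in AC and 84.9, 94.1 and 83.5 in BC (differences -1.49 ± 0.11 and -2.81 ± 0.11). VIM2, which has a close copy among the VIM genes, had 36.6, 36.9 and 55 FPKM in 32E and 4.25, 0.8 and 3.09 in 32S, against 276, 323 and 299 in AC and 136, 149 and 128 in BC. CMT2, a methyltransferase that acts outside CG sites, rose, with 4.23, 4.8 and 5.15 FPKM in 32E and 14.6, 7.74 and 13.3 in 32S, against 1.87, 0 and 0 in AC and 0 in each BC library (difference 2.82 ± 0.38, adjusted p = 0.000173). IDN2, a component of RNA-directed DNA methylation, was present throughout and rose by 1.42 ± 0.15, adjusted p = 2.97e-05, and its 32E values of 96.3, 122 and 101 FPKM were below its BC values of 156, 145 and 157 FPKM.

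Of 11 tested genes of the egg cell and zygote, 2 fell in both lineages (18.18%, beside 4.20% of all genes) and 0 rose. A share of so few genes is coarse. At an unadjusted p under 0.05 in limma 5 fell and 0 rose in both. The 2 genes called were EC1.5, of the EC1 family of secreted egg cell proteins that act on sperm, and YDA. YDA is the kinase that promotes zygote elongation and suspensor fate. EC1.5 had 3.02, 0.87 and 1.72 FPKM in 32E and 0.65, 0.2 and 0.44 in 32S, against 22.3, 31.2 and 21.5 in AC and 16.5, 14.4 and 20.17 in BC (difference -3.44 ± 0.25, adjusted p = 1.87e-06). EC1.1 had 0 in all 6 libraries of the 32-cell embryo, against 1.12, 1.6 and 0 FPKM in AC and 8.05, 7.23 and 8.98 in BC, and it was called in the basal lineage but not in the apical. EC1.2 and EC1.3 were listed at 0 in all 12 libraries, and EC1.4 had values above 0 in 32E alone, at 0.25, 0.93 and 1.79 FPKM. YDA had 17.5, 18.6 and 20.9 FPKM in 32E and 7.62, 12.7 and 9.77 in 32S, against 41.9, 37.7 and 50.1 in AC and 37.6, 36.7 and 34.1 in BC (difference -1.46 ± 0.17, adjusted p = 8e-05). Of 11 tested genes of seed maturation and storage, likewise few, 2 fell in both lineages (18.18%, beside 4.20% of all genes) and 0 rose. They were the dehydrin ERD14 (-3.60 ± 0.44, adjusted p = 9.35e-05) and the oil body protein OLEO1 (-2.97 ± 0.29, adjusted p = 1.84e-05). At an unadjusted p under 0.05 in limma 3 fell and 0 rose in both. The median difference of the seed maturation list was 0.25, with -0.65 in the apical and 1.44 in the basal lineage, so the list as a whole did not fall.

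Genes of carbon and water transport and of energy metabolism changed in smaller numbers. Of 22 tested genes of sugar and water transport, 3 fell in both lineages (13.6%) and 1 rose (4.55%), beside 4.20% and 4.52% of all genes. Beside SWEET8, the aquaporins RD28 and PIP2;5 fell, with differences of -1.03 and -1.81 in the apical and -2.38 and -3.68 in the basal lineage. Of the aquaporins PIP1;4 rose, with 77.3, 106 and 66 FPKM in 32E and 2.76, 2.12 and 2.62 in 32S, and had at most 1.37 FPKM in the 1-cell embryo. Of 32 tested genes of glycolysis and respiration, 3 fell (9.38%) and 1 rose (3.13%), beside 4.20% and 4.52% of all genes. Those that fell were AT4G33070 (PDC1, a pyruvate decarboxylase of fermentation), with differences of -4.72 and -1.68, the aldolase FBA4 and the alternative oxidase AOX1C. The gene that rose was HXK2, a hexokinase, by 2.52 ± 0.38 and 2.47 ± 0.38. MLS, the malate synthase of the glyoxylate cycle, fell and was listed at 0 in each 32E library.

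**Figure D4:**
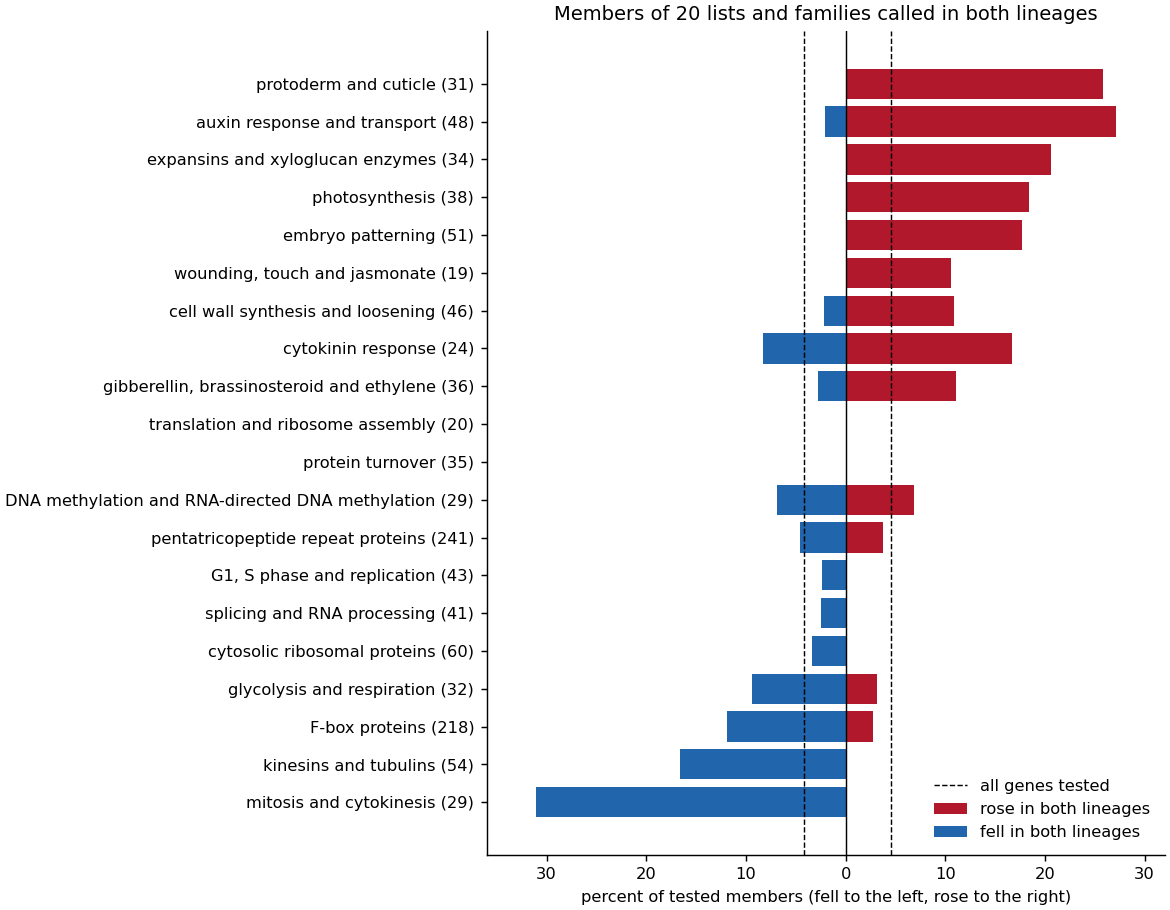
Bars give the percent of the tested members (number in brackets) of 20 lists and families that rose (right) or fell (left) in both lineages, and dashed lines give the share of all genes, 4.52% and 4.20%. Protoderm, auxin, expansin, photosynthesis and patterning genes reach farthest to the right, and mitosis genes and kinesins farthest to the left.

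In other groups few or no genes were called in both lineages, which does not show that their levels stayed the same. With stage, 5 of the 20 translation genes below fell (25%, beside 9.67% of all genes). Of 35 tested genes of protein turnover and 20 of translation and ribosome assembly, 0 rose and 0 fell in both lineages, and the same held for 13 housekeeping genes, which were at 3.95 FPKM or more in every library. At an unadjusted p under 0.05 in limma, 1 rose and 5 fell of the first list, 0 and 6 of the second and 1 and 3 of the third. Of 41 tested genes of splicing and RNA processing 1 fell in both, and of 241 pentatricopeptide repeat proteins 9 rose (3.73%) and 11 fell (4.56%), close to the shares of all genes. Of 31 lists examined, 18 held a gene that rose and 17 a gene that fell in both lineages, and 8 held neither.

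**Figure D5:**
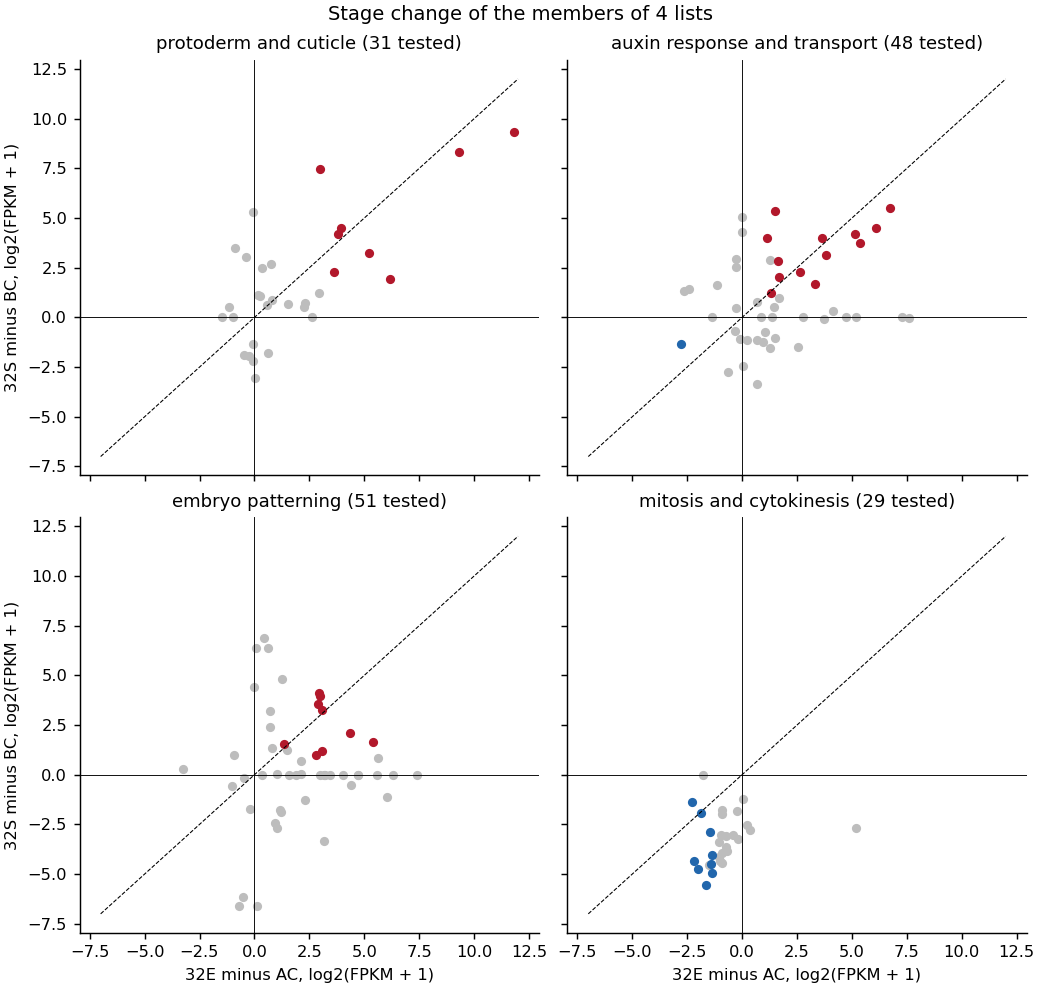
Each point is a tested member of the list named above its panel, with 32E minus AC on the x axis and 32S minus BC on the y axis, in log2(FPKM + 1). Red points rose and blue points fell in both lineages, grey points were not called in both, and the dashed line marks equal change. The mitosis genes that fell lie mostly below the line, where the basal change was larger.

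Gene structure differed between the directions as well. The genes that rose in both lineages had a median of 3 exons, against 5 for the genes that fell and 5 for all genes tested. Of those that rose, 18.9% had a single exon, beside 13.7% of those that fell and 14.5% of all genes. Their median transcript length was 1677 bases, beside 1805 and 1753. Of 14 motifs searched on both strands of the 300 bases before the start, the telo box AAACCCT, which is common before genes of dividing cells, was present in 6.397% of windows of genes that rose and 12.3% of those that fell, beside 8.34% of all windows. The site II element TGGGCC, common before ribosomal protein genes, was present in 12.5% of windows of genes that rose and 20.23% of those that fell, beside 19.9%. A match is a description of the letters and not of a site in use.

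The number of genes above 1 FPKM was higher in the 32-cell embryo. It was 14796, 15322 and 14932 in 32E and 14788, 14850 and 14963 in 32S, against 14562, 14496 and 13555 in AC and 13034, 13636 and 13784 in BC. The means were 14942 in the 32-cell and 13845 in the 1-cell embryo, a difference of 1097 genes (exact permutation of stage within lineages, two-sided, p = 0.005, the smallest value that 400 arrangements can give). The highest AC library stayed below the lowest library of the 32-cell embryo. Above 5 FPKM the difference was 88 genes (exact permutation p = 0.34). The pools held single cells at the 1-cell stage and their descendants at the 32-cell stage. The number of cells per library may thus have differed with stage, and its part in these counts was not tested.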

How the data were processed

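FPKM of 32399 genes in each of 12 libraries was used as deposited. The authors had computed FPKM before deposition, by RSEM on reads mapped to TAIR10. Their methods name Bowtie 2 for the mapping, and the submitters' notes name TopHat2 2.1.1, and which of them was used is not settled here. A scaling between libraries is not stated, 0 columns of values were left unused, and depth is not given in the files used here. Replicates were independent samples of one genotype.

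The test took in genes that exceeded FPKM 1 in 3 libraries or more, which were fitted with limma 3.58.1 (R 4.3.3) on log2(FPKM + 1) with a trended prior, in an additive model of lineage and stage (9 residual degrees of freedom) and in a model of 4 group means (8) for each lineage and for the difference between lineages. p-values were adjusted over all genes tested. A gene was called shared when it was called with stage and in both lineages in the same direction. The procedure was tested on simulated data.

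Gene lists, 31 by symbol and 42 families by product annotation, were chosen with earlier results of these data known, and patterns of 2 families and a motif were corrected or added after the values were seen. No list was tested. Named genes were the 12 shared genes per direction with the largest smaller lineage difference and no overlap between stages, the 6 with the largest difference in mean FPKM, up to 3 shared genes per list, family and direction, and EC1.1 to EC1.5. All shared genes of the protoderm, auxin, patterning, mitosis, photosynthesis and cytokinin lists were added after their values were seen. Positions, symbols and sequences came from RefSeq TAIR10.1, which placed 31900 genes and left 67 of 1028 list symbols unmatched. Promoter windows were found for 766 of 771, 707 of 716 and 16885 of 17060 genes. Alternatives were pseudocounts, filters, scalings, models, thresholds and leaving out each library. Python 3.11.15, numpy 2.4.6, pandas 2.3.3 and matplotlib 3.10.9 were used.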

Additional observations from a re-analysis of the deposited data

Results flagged for a closer look

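For 55 of the 113 tested genes named in the report, the stage change differed between the lineages in limma's test of the difference (adjusted p under 0.01 and at least 1 apart on the log2 scale). The values below are the basal difference minus the apical difference in log2(FPKM + 1), with 3 libraries in each group. They depend on the pseudocount where a group was listed at 0. No explanation was weighed.

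Among genes that rose, the rise was smaller in the basal lineage for PIP1;4 (-4.15), LACS2 (-4.23), AIL5 (-3.78), DWF4 (-3.75), EXPA6 (-3.04), PDF1 (-2.50), AT4G31760 (-2.42), ABI3 (-2.24) and PEL3 (-1.99). It was also smaller there for PHB (-1.88), ATHB-15 (-1.77), EXPA15 (-1.68), PIN4 (-1.66), IAA13 (-1.64) and CKX6 (-1.23). The rise was larger in the basal lineage for KCS10 (4.48), ARF10 (3.84), IAA12 (2.86), AT1G71691 (1.96), PETC (1.90), PCK1 (1.67), RR3 (1.33), AT2G28790 (1.29), ABCG15 (1.28) and AT3G24250 (1.25).

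Among genes that fell, all mitosis genes named except CYCB2;2 and CYCB2;3 fell more in the basal lineage. These were CYCB3;1 (-3.94), CYCB2;4 (-3.59), CYC1BAT (-3.10), CYCB1;1 (-2.77), AUR3 (-2.67), MYB3R-4 (-2.15) and CDKB2;2 (-1.46), beside the kinesins ATK4 (-2.85) and AT4G26660 (-2.66). The basal fall was also larger for FBA4 (-3.51), VIM2 (-2.56), ERD14 (-2.47), EC1.1 (-2.36), IMPA-6 (-2.08), RR14 (-2.07) and PIP2;5 (-1.87). The same held for emb2204 (-1.77), AT3G54310 (-1.68), RD28 (-1.35), AOX1C (-1.34) and VIM3 (-1.33). The fall was smaller in the basal lineage for AT3G58330 (5.55), SWEET8 (4.34), AT4G33070 (3.04), AT5G45280 (2.16) and AT4G25930 (1.94). It was also smaller there for FOA1 (1.75), AT5G09500 (1.69), ARF17 (1.46) and ARR15 (1.42).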

How the results depend on the processing

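No gene called in both lineages was called in both in the opposite direction under any alternative. Such a reversal would need a swing past both thresholds, so its absence says little about stability. Of the 113 tested genes named, 6 lost their call with stage with a pseudocount of 5. The count was 16 at a log2 difference of 2 and 26 without the lineage covariate. It was 0 under any other alternative in which they were tested, the leaving out of each library included. Only 43 were tested without genes at 0 in any library. Calls in both lineages were not followed for each named gene. Without 32E replicate 2, 620 of the 771 genes that rose and 618 of the 716 that fell kept such a call. The counts of calls moved more. With a pseudocount of 5, 1011 genes rose with stage, 402 rose and 440 fell in both lineages, 259 of those that rose were less than 1 apart, and 273 genes called in both differed between lineages, beside 1659, 771, 716, 414 and 528. Without genes at 0 in any library these were 609, 240, 465, 154 and 217. Without the lineage covariate, 788 rose and 688 fell with stage, and with the 4 group means 3211 and 2871, beside 1659 and 1650. At an adjusted p under 0.05 they were 2889 and 2573. At a log2 difference of 2 they were 837 and 579, with 335 and 183 in both lineages, 175 and 99 of them less than 1 apart and 95 different between lineages. Leaving out each library gave 1218 to 1694 genes that rose and 1252 to 1656 that fell with stage, 634 to 816 and 624 to 728 in both lineages, 324 to 445 and 340 to 392 less than 1 apart, and 433 to 590 different between lineages. The difference in the number of genes above 1 FPKM was 935 to 1241 without each library, and 88 above 5 FPKM (exact permutation p = 0.34).

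Same-numbered libraries of different groups did not deviate together (correlations of -0.13 to 0.07, 0 of 18 above 0.1), so the numbers were not taken as pairs. With the replicate number as a block, 1197 genes rose and 1203 fell with stage, and 733 and 696 did in both lineages.

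The files give no counts, so a value of 0 cannot be told apart from a low level, and the 122 genes listed at 0 in the whole 1-cell embryo rest on this. The part of the amount of starting material in these values of 0 was not tested.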
